A study of Mus musculus with 12 samples.

Results

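The cholesterol synthesis enzymes followed here in spinal cord are encoded by 9 genes, Hmgcs1, Pmvk, Idi1, Fdps, Sqle, Lss, Msmo1, Ebp and Dhcr7. They were chosen by name: every probe set that the array's annotation assigns to 1 of these symbols was taken, which gave 16 of the 22690 probe sets. A filter on low signal kept 14 of the 16, at least 1 for each of the 9 genes, and the brightest kept probe set stands for its gene below. The arrays come from 13-day-old mice of an FVB line, with the transgenes Tg(SMN2*delta7)4299Ahmb and Tg(SMN2)89Ahmb and the targeted allele Smn1tm1Msd, that models spinal muscular atrophy (SMA), in which motor neurons die for want of the SMN protein. Animals of all 3 groups carry the human SMN2 gene and the SmnΔ7 transgene on both alleles. The wildtype group keeps a single intact mouse Smn allele (mSmn+/-), and both SMA groups have none (mSmn-/-). Vehicle was given to 4 wildtype and 4 SMA mice, and 4 SMA mice received ceftriaxone, a beta-lactam antibiotic, at 200 mg/kg daily by intraperitoneal injection from day 5. Ceftriaxone in wildtype mice was not analysed here, the labels speak of whole cords in one place and of lumbar segments in another, and sex is not given.

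Cholesterol is built from acetyl-CoA. Early enzymes make mevalonate and convert it into isoprenoid diphosphates, these are joined into squalene, squalene is closed into lanosterol, and a series of late enzymes trims lanosterol to cholesterol. Transcription of the enzyme genes is raised by the SREBP factors, membrane proteins that are released to the nucleus when sterols are low. The brain and spinal cord make their own cholesterol because lipoproteins of the blood do not cross into them, and oligodendrocytes need much of it for the myelin they lay down in the weeks after birth.

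The stretches before the gene starts are shown because most of the 9 genes moved together across the groups, and Pmvk, which did not, is set beside 3 that did. RefSeq entries (build GRCm38.p6) gave promoters for 7 of the 9 genes, and none were used for Fdps and Sqle. Each line holds the 250 bases before the start, 5′ to 3′ on the gene's strand. Capitals mark TCACNCCAC, a sterol regulatory element form with N for any base, and CCAAT, the box bound by NF-Y, which reads ATTGG when it lies on the opposite strand. They come from chr13:119690101-119690350 (plus strand, Hmgcs1), chr13:8885356-8885605 (plus, Idi1), chr8:64733579-64733828 (minus, Msmo1) and chr3:89454291-89454540 (plus, the first of 2 Pmvk starts).
Hmgcs1: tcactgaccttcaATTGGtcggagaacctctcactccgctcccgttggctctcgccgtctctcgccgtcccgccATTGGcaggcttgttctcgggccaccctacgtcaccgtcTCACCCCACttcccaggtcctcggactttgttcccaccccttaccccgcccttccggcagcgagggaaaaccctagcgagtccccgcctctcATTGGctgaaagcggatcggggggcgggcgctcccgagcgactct
Idi1: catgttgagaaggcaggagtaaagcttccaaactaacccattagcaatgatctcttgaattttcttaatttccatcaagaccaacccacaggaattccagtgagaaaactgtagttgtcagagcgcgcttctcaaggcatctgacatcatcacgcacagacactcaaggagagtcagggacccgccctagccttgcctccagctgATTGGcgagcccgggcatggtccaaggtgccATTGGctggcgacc
Msmo1: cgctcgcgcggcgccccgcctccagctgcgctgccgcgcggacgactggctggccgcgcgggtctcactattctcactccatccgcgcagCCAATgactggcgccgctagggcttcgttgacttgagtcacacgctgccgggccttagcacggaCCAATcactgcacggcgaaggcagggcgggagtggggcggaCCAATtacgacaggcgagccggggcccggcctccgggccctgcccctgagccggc
Pmvk: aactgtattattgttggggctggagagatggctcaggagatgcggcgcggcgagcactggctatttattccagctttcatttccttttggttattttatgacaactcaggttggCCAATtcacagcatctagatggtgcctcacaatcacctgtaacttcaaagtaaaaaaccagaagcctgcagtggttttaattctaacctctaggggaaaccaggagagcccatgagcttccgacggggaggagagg

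Searched on both strands, CCAAT was found before at least 1 start in 7 of 7 genes, against 37.5% of the 27025 genes in the promoter table. There were 3 matches for Hmgcs1, 3 for Msmo1, 2 for Idi1 and 1 for Pmvk, where the second start had none. GGGCGG, the box bound by Sp1, was found in 6 of 7, all but Pmvk, against 35.4% of genes. Of 10 other synthesis enzymes with a promoter, 9 had CCAAT and 9 had GGGCGG. Mvk, Tm7sf2 and Lbr, which did not pass the test in SMA vehicle cords (below), had both boxes. Ggps1, which did not pass either, had CCAAT only. GGGCGG was missing only before Pmvk and Ggps1. Both boxes were found before every searched gene that passed there, and also before Mvk, Tm7sf2 and Lbr. A link between the boxes and the changes was not tested. The sterol regulatory element form TCACNCCAC was found in 1 of 7, Hmgcs1, at 137 to 129 bases before the start, against 1.22% of genes. CACCCCAC, another form, matched Hmgcs1 at the same place, where it overlaps the first, and no other of the 7, against 2.98% of genes. These matches describe letters in a window and not binding.

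Before the values, some facts on the arrays bear on them. Mouse Smn1 signal was 263.4 to 414.3 on the wildtype arrays and 3.3 to 15.8 on all 8 SMA arrays, as labelled. As markers of nervous tissue, 16 neuronal genes summed to 63309 to 98158 and 12 astrocyte genes to 41591 to 75142 over all arrays. Wildtype array 2 stood apart, with a summed signal of 38370 over 10 thymus genes such as Rag1 and Cd3d, against 157.6 to 295.1 on the other 3 wildtype arrays and 84.5 to 531.6 on the SMA arrays. Xist, the RNA of the inactive X chromosome, exceeded a signal of 1000 on 1 wildtype, 2 SMA vehicle and 4 SMA ceftriaxone arrays, and Eif2s3y, a gene of the Y chromosome, lay between 0.3 and 5.0 on those arrays. Results are therefore also given without wildtype array 2 and within arrays of like Xist signal. For Gapdh, the signal of the 3 prime probe set over that of the 5 prime probe set, a sign of RNA integrity, was 0.745 to 0.761 in wildtype, 0.733 to 0.757 in SMA vehicle and 0.720 to 0.756 in SMA ceftriaxone cords. The same ratio for Actb was 1.19 to 1.44, 1.21 to 1.24 and 1.2 to 1.41, so it spread more within the wildtype and ceftriaxone groups.

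The first comparison asked what the loss of Smn does in vehicle-treated cords. Of the 9 enzyme genes 8 fell in SMA vehicle cords and Pmvk did not pass the test (limma, Benjamini-Hochberg adjusted p under 0.05). Of all 13575 probe sets tested, 22.3% fell and 24.9% rose, so 47.2% changed. The arrays of SMA vehicle lay below all wildtype arrays in the same 8 genes, against 19.6% of probe sets. The median log2 fold change of the 9 genes was -0.74, beside 0.015 over all probe sets. Idi1, Lss, Msmo1 and Ebp fell more than 2-fold, as did 4.18% of probe sets. In bulk tissue, fewer cells of a type and less RNA per cell cannot be told apart.

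Hmgcs1 encodes the cytosolic synthase that makes HMG-CoA, the substrate from which mevalonate is formed. Its signals on arrays 1 to 4 were 15265, 12767, 17826 and 19374 in wildtype, 11437, 11231, 10789 and 10834 in SMA vehicle and 16500, 13918, 14211 and 15302 in SMA ceftriaxone. Every SMA vehicle array lay below every array of the other groups, and the wildtype and ceftriaxone arrays overlapped. The log2 fold change was -0.54 ± 0.11 (SE) in SMA vehicle against wildtype (limma adjusted p = 0.00114). Ceftriaxone-treated cords were 0.43 ± 0.11 above vehicle-treated SMA cords on the log2 scale (adjusted p = 0.00736). The 3 further Hmgcs1 probe sets fell by 0.56, 0.60 and 0.91 and were 0.36, 0.46 and 0.59 higher with ceftriaxone, all past the test, so the size differed between probe sets and the direction did not.

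Pmvk encodes phosphomevalonate kinase, which adds the second phosphate to mevalonate. Its signals were 1153, 797.0, 1098 and 970.9 in wildtype, 861.5, 818.9, 960.5 and 980.0 in SMA vehicle and 831.6, 785.4, 764.5 and 718.8 in SMA ceftriaxone. All 3 groups overlapped. Its log2 fold change in SMA vehicle against wildtype was -0.14, with a 95% interval from -0.38 to 0.10 (adjusted p = 0.325). Pmvk was the only one of the 9 with a lower mean in ceftriaxone than in vehicle-treated SMA cords, by -0.22 ± 0.11 (adjusted p = 0.143).

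Idi1 encodes isopentenyl diphosphate isomerase, which supplies the reactive isomer for chain growth. Signals on arrays 1 to 4 were 4762, 3690, 5799 and 5466 in wildtype, 2272, 2265, 2002 and 1838 in SMA vehicle and 4055, 3953, 3832 and 3662 in SMA ceftriaxone cords. The SMA vehicle arrays formed a low group with no overlap with either of the others. Idi1 had the largest fall of the 9 genes by its brightest probe set, -1.21 ± 0.12 (adjusted p = 6.92e-06), which left 42.5% of the wildtype mean. Ceftriaxone-treated cords were 0.89 ± 0.12 higher than vehicle-treated SMA cords (adjusted p = 0.000176), at 78.6% of the wildtype mean. A second probe set moved by -1.37 and 1.08 in these comparisons.

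Fdps encodes farnesyl diphosphate synthase, the enzyme at which the pathway branches toward sterols and prenylated proteins. Its signals were 6998, 6090, 8224 and 8941 in wildtype, 5245, 5027, 4238 and 4477 in SMA vehicle and 5594, 6929, 6269 and 6103 in SMA ceftriaxone. The SMA vehicle arrays again lay below all others. The fall was -0.66 ± 0.12 (adjusted p = 0.000436), and the rise with ceftriaxone was 0.39 ± 0.12 (adjusted p = 0.0185). Its call in the ceftriaxone comparison was lost without SMA vehicle array 3 (adjusted p = 0.0629), without SMA vehicle array 4 (0.0537) and without ceftriaxone array 2 (0.062). A second Fdps probe set had signals of 0.4 to 2.5 on all arrays, below the filter.

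Sqle encodes squalene epoxidase, which adds oxygen to squalene and is a rate-limiting step of the sterol branch. Its signals were 4880, 3447, 4979 and 5073 in wildtype, 3203, 2979, 3236 and 2914 in SMA vehicle and 3991, 3991, 3701 and 3494 in SMA ceftriaxone cords. Wildtype array 2 lay far below the other wildtype arrays and below all ceftriaxone arrays, and the SMA vehicle arrays were the lowest. Sqle fell by 0.56 ± 0.11 in SMA vehicle cords (adjusted p = 0.00103). With ceftriaxone its mean was 0.30 ± 0.11 higher and no array overlapped with vehicle-treated SMA, yet the test was narrowly missed (adjusted p = 0.0502).

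Lss encodes lanosterol synthase, which folds the epoxide into the first sterol. Its signals were 1582, 1445, 2156 and 2006 in wildtype, 985.7, 880.1, 605.6 and 693.3 in SMA vehicle and 1790, 2023, 1781 and 1788 in SMA ceftriaxone. The ceftriaxone arrays fell within the wildtype range, far above the SMA vehicle arrays. Lss fell by 1.17 ± 0.15 in SMA vehicle cords (adjusted p = 4.83e-05). It had the largest rise with ceftriaxone, 1.23 ± 0.15 (adjusted p = 0.000101), the only one of the 9 over 2-fold, where 2.80% of probe sets rose that far. A second Lss probe set moved by -1.42 and 1.10 and stood at -0.32 against wildtype with ceftriaxone, whereas the brightest stood at 0.055, so the Lss probe sets disagree on the sign of that last difference. The dimmest had signals of 2.1 to 30.4 and lay below the filter.

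Msmo1 encodes the methylsterol monooxygenase that starts removal of the C-4 methyl groups. Its signals were 5542, 3970, 6198 and 5632 in wildtype, 2523, 2570, 2200 and 2014 in SMA vehicle and 4037, 4472, 3973 and 3993 in SMA ceftriaxone cords. SMA vehicle arrays were low without overlap. Msmo1 fell by 1.18 ± 0.12 (adjusted p = 9.17e-06), to 43.6% of the wildtype mean. It rose by 0.83 ± 0.12 with ceftriaxone (adjusted p = 0.000305), to 77.2%.

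Ebp encodes the sterol isomerase that shifts a ring double bond, and lies on the X chromosome. Its signals were 2004, 1521, 1859 and 2165 in wildtype, 988.4, 934.2, 756.2 and 796.4 in SMA vehicle and 1393, 1628, 1455 and 1464 in SMA ceftriaxone. The groups separated as for Msmo1. Ebp fell by 1.10 ± 0.12 (adjusted p = 8.69e-06) and rose by 0.77 ± 0.12 with ceftriaxone (adjusted p = 0.000298).

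Dhcr7 encodes the reductase that finishes cholesterol from its dehydro precursor. Its signals were 2165, 1271, 1624 and 1501 in wildtype, 1143, 1042, 813.0 and 859.3 in SMA vehicle and 1242, 1232, 1153 and 1198 in SMA ceftriaxone cords. Wildtype array 1 was the highest by a wide margin, and all wildtype arrays lay above all others. Dhcr7 fell by 0.74 ± 0.15 (adjusted p = 0.000938). Its mean was 0.33 ± 0.15 higher with ceftriaxone than in vehicle-treated SMA cords, without overlap, and the test was not passed (adjusted p = 0.0919).

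**Figure D1:**
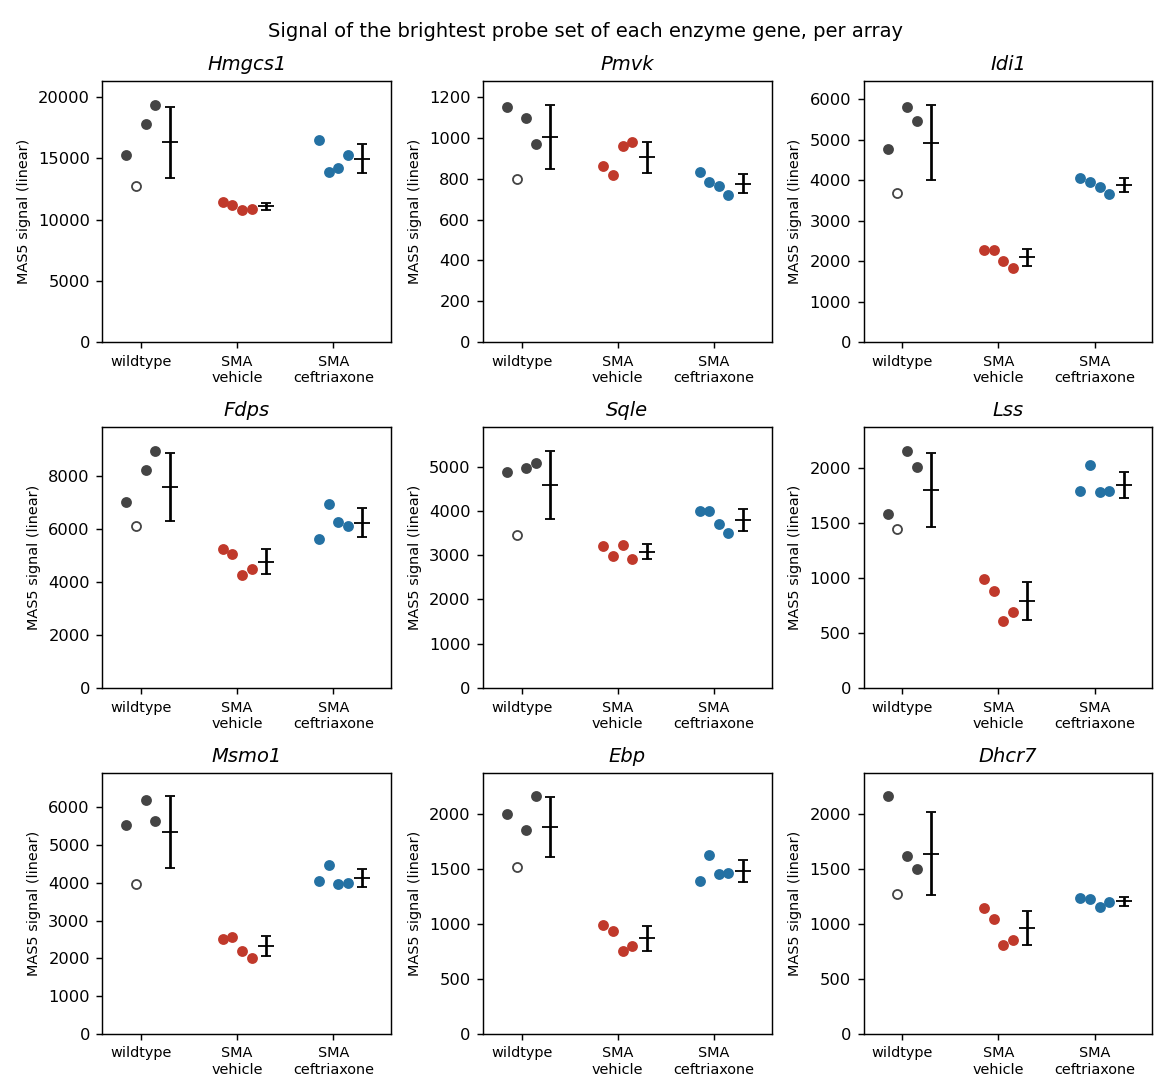
Signal of the brightest probe set of each enzyme gene (linear MAS5 signal, y axis from 0) on each array, by group. Points are single mice, the hollow point is wildtype array 2, and the bar beside each group is the mean with 1 SD (n = 4). In every gene except Pmvk the 4 SMA vehicle points lie below all wildtype points.

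The plot of signals by array shows the shared order. Mean signal ran from wildtype through SMA ceftriaxone to SMA vehicle in 7 of the 9 genes. In Lss the ceftriaxone mean was 103% of the wildtype mean, and in Pmvk the ceftriaxone mean was the lowest, at 77.1%. Across the other genes, SMA vehicle cords held 42.5% (Idi1) to 67.9% (Hmgcs1) of the wildtype mean. By place in the pathway, the 4 genes that fell more than 2-fold were Idi1 of the isoprenoid stage and Lss, Msmo1 and Ebp of the sterol stage, while Hmgcs1 at the entry, Fdps, Sqle and Dhcr7 fell by 0.54 to 0.74. These sizes hold for the brightest probe sets, and the dimmest Hmgcs1 probe set fell by 0.91.

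The second comparison, ceftriaxone against vehicle within SMA mice, shares the SMA vehicle arrays with the first, so values of the pair are side by side and not independent. With ceftriaxone 6 of the 9 genes rose (Hmgcs1, Idi1, Fdps, Lss, Msmo1 and Ebp), and Pmvk, Sqle and Dhcr7 did not pass the test. Of all probe sets, 18.3% rose and 17.7% fell, so 35.9% changed. The median log2 fold change of the 9 genes was 0.43, beside -0.0105 over all. Arrays of the groups did not overlap in 8 of 9 genes, all higher with ceftriaxone, against 22.0% of probe sets.

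The third comparison asked where treated SMA cords stood against wildtype, and it shares arrays with each of the others. By limma, 0 of the 9 genes passed the test, against 4.21% of all probe sets in either direction and 0.928% lower. By the brightest probe sets, an unadjusted p under 0.05 was found for 7, all except Hmgcs1 and Lss. The dimmest Hmgcs1 probe set stood at -0.32 (limma unadjusted p = 0.0114) and the second Lss probe set at -0.32 (unadjusted p = 0.013). The remaining Hmgcs1 probe sets stood at -0.20 and -0.15 (unadjusted p = 0.064 and 0.16). The log2 fold change was negative in 8 genes and positive in 1, Lss, with a median of -0.33 beside 0.012 over all probe sets. Pmvk stood at -0.36 ± 0.11 (adjusted p = 0.091), the smallest adjusted p of the 9. Dhcr7 was the only gene whose arrays did not overlap, as in 3.92% of probe sets with the treated arrays lower, at -0.41 with a 95% interval from -0.73 to -0.10 (adjusted p = 0.13). For Hmgcs1 the interval ran from -0.34 to 0.13, and for Lss from -0.28 to 0.39.

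**Figure D2:**
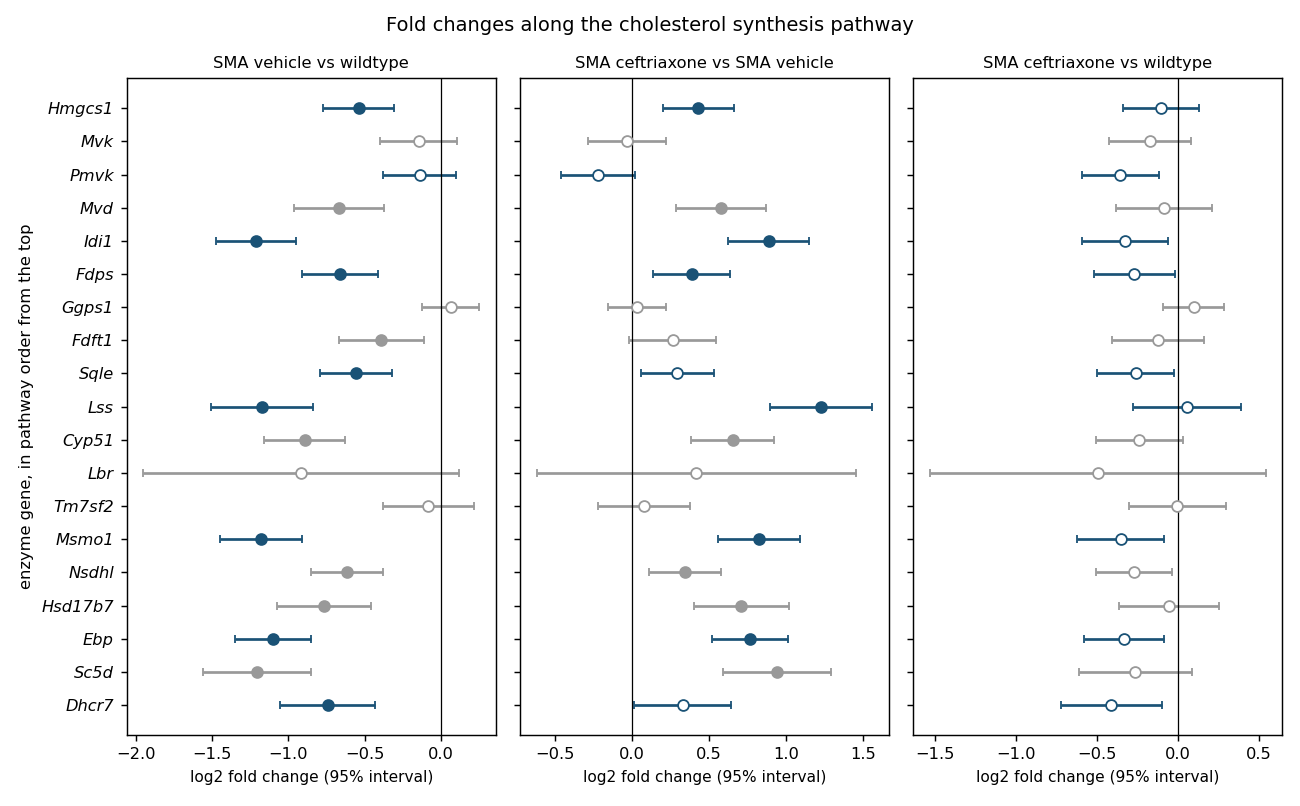
Log2 fold change with its 95% interval (x axis) for 19 enzyme genes in pathway order from the top (y axis), 1 panel per comparison. Dark blue marks the 9 genes and grey the other enzymes, filled points have an adjusted p under 0.05 and hollow points do not. Filled points lie left of 0 in the first panel and right of 0 in the second, and the third has none.

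The comparison of treated SMA with wildtype cords turned on wildtype array 2. It was the lowest wildtype array in 9 of 9 genes, at 68.6% to 75.7% of the mean of the other 3 wildtype arrays. The same held for 9 of 10 other synthesis enzymes and for 45.6% of all probe sets tested. The summed signals of the neuronal (63309), astrocyte (47992) and myelin (99541) markers were also the lowest of the wildtype arrays there. Without it, 7 of the 9 genes were lower in SMA ceftriaxone than in wildtype cords, all but Hmgcs1 (adjusted p = 0.0874) and Lss (0.882), where 4.27% of probe sets were lower. Their median log2 fold change was then -0.43, and Lss stood at -0.043. Pmvk, which had passed no test, was then lower in SMA vehicle (-0.24, adjusted p = 0.0278) and in SMA ceftriaxone (-0.46, adjusted p = 0.00717) than in wildtype cords, and lower with ceftriaxone than vehicle in SMA mice (adjusted p = 0.0375). All 9 genes were then lower in SMA vehicle than in wildtype cords, where 27.5% of probe sets were, with a median of -0.86. In that fit 8 rose with ceftriaxone, Sqle and Dhcr7 among them, where 24.6% of probe sets rose. Ceftriaxone against vehicle holds no wildtype array, so its fold changes were unchanged (Sqle 0.30, Dhcr7 0.33, Pmvk -0.22). Its added calls came with a smaller estimate of the spread, which all groups share (SE of Sqle 0.057, against 0.11 with all arrays). The parts of the thymus signal and of sex in these values were not tested.

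**Figure D3:**
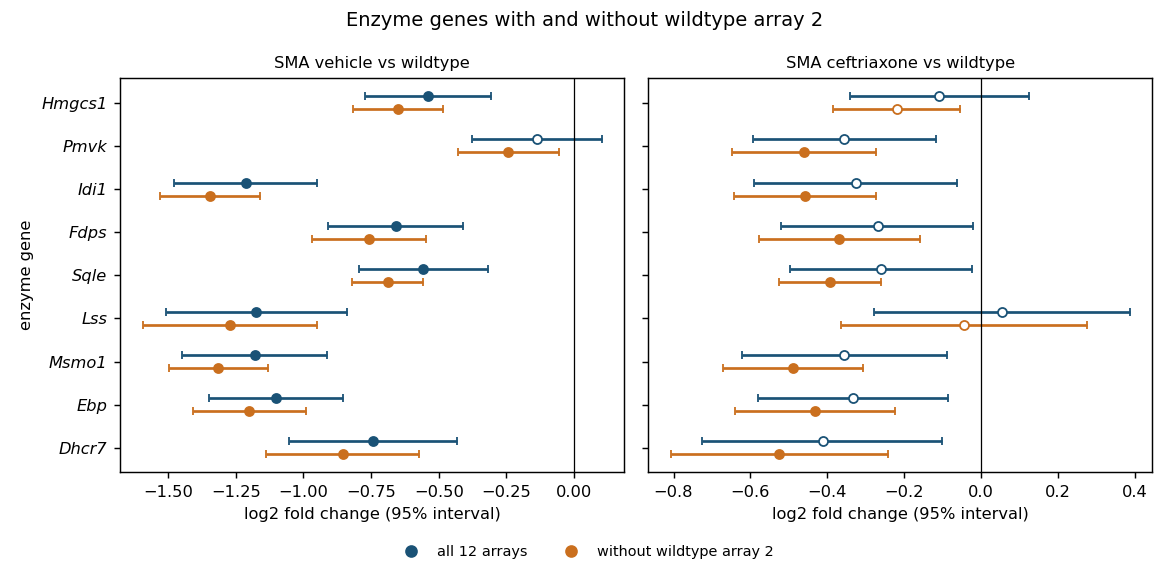
Log2 fold changes with 95% intervals (x axis) of the 9 enzyme genes (y axis) against wildtype, with all 12 arrays (blue) and without wildtype array 2 (orange). Filled points have an adjusted p under 0.05. In SMA ceftriaxone against wildtype (right) all blue points are hollow and 7 orange points are filled.

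The groups differed in Xist and Eif2s3y, markers of sex. Among arrays of low Xist signal, 3 wildtype against 2 SMA vehicle, 4 genes kept their call, Idi1 (-1.10), Lss (-1.17), Msmo1 (-1.06) and Ebp (-1.14). Hmgcs1 (-0.50), Fdps (-0.65), Sqle (-0.50) and Dhcr7 (-0.79) did not pass the test there, where 7.69% of probe sets were lower. Wildtype array 2 is among these 3 wildtype arrays, so its part and that of sex cannot be told apart in this split. Without array 2 and with all other arrays, these genes stood at -0.65, -0.76, -0.69 and -0.86. Among arrays of high Xist signal, 4 ceftriaxone against 2 SMA vehicle, 7 genes rose, beside 16.4% of probe sets, and Sqle was then among them (0.31, adjusted p = 0.0209). Both splits were chosen after the data were seen. SMA ceftriaxone against wildtype was not split, since Xist signal was high on all 4 ceftriaxone arrays and on only 1 wildtype array. Sex and group are therefore hard to tell apart in that comparison, also without array 2. With all arrays and Xist signal as a covariate, none of the enzyme genes passed there (limma adjusted p from 0.192 for Pmvk to 0.812 for Lss). The covariate was not tested without array 2.

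The rest of the pathway was read from lists of other enzymes, regulators and carriers, 46 genes of which 32 were measured and kept by the filter. Of 10 other synthesis enzymes, 6 fell in SMA vehicle cords and 4 did not pass, where 22.3% of all probe sets fell. Cyp51, the lanosterol demethylase, fell by 0.89, from a mean signal of 4461 ± 660 (SD, n = 4) in wildtype to 2383 ± 249, and stood at 3766 ± 455 with ceftriaxone. Sc5d, the sterol desaturase before Dhcr7, fell by 1.21 and rose by 0.94 with ceftriaxone. Mvd, which makes isopentenyl diphosphate, fell by 0.67, Hsd17b7 by 0.77 and Nsdhl by 0.62, the latter a pair that act with Msmo1 on the C-4 methyl groups. Fdft1, the squalene synthase, fell by 0.39, and its second probe set did not pass (-0.29, adjusted p = 0.0545). With ceftriaxone 5 of the 10 rose, where 18.3% of all probe sets rose, and Fdft1 stood at 0.26 (adjusted p = 0.13). None of the 10 passed against wildtype with ceftriaxone, and without wildtype array 2 there were 4 lower, as were 4.27% of probe sets.

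Mvk, which phosphorylates mevalonate just before Pmvk, also missed the test in SMA vehicle cords (-0.14), as did Ggps1 of the isoprenoid side branch (0.064) and Tm7sf2, a sterol reductase (-0.084). Lbr, the other sterol reductase of that step, stood at -0.92 (adjusted p = 0.135), and on wildtype array 2 its signal was 4172 against a mean of 597.5 on the other 3. The fold changes along the pathway are plotted in order. In SMA vehicle against wildtype, the kinase steps Mvk and Pmvk sit near 0 between Hmgcs1 and Mvd. In SMA ceftriaxone against wildtype, Pmvk stood at -0.36 and Mvk at -0.17, beside -0.11 for Hmgcs1 and -0.088 for Mvd.

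Among the SREBP regulators 5 of 7 listed genes were tested. Insig2, which holds the SREBP complex in the endoplasmic reticulum, fell by 0.42 (adjusted p = 0.0159) and rose by 0.39 with ceftriaxone. Mbtps1, a protease that releases SREBP, fell by 0.32 (adjusted p = 0.036) and rose by 0.33. Its signal on wildtype array 2 was 1478, against 944.1 to 1072 on the other wildtype arrays, which raises the wildtype mean. A second Mbtps1 probe set did not pass (-0.049 and 0.12). By their brightest probe sets the factor genes themselves did not pass, with Srebf2 at -0.092 and Srebf1 at 0.007 in SMA vehicle cords, and Srebf1 at 0.30 with ceftriaxone (adjusted p = 0.0726). A second Srebf2 probe set fell in SMA vehicle cords (-0.30, adjusted p = 0.0196), so the Srebf2 probe sets disagree on the call. Scap, the SREBP escort, stood at 0.21.

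Genes of cholesterol uptake, efflux, transport and turnover were divided, with 6 of 13 lower and 2 higher in SMA vehicle cords. Over all probe sets, 22.3% were lower and 24.9% higher there. Npc1 and Npc2, which move cholesterol out of lysosomes, fell by 1.37 and 1.10 and rose by 1.07 and 0.84 with ceftriaxone. Lcat, which esterifies cholesterol on lipoproteins, fell from a mean of 753.6 ± 207 to 223.7 ± 38.1 and stood at 482.4 ± 45.7 with ceftriaxone. Stard4, a sterol carrier, fell by 0.70 and rose by 0.62. Lpl, a lipoprotein lipase, went the other way, 0.69 higher in SMA vehicle cords and 0.97 lower with ceftriaxone than with vehicle. Abca1, the efflux transporter, was higher in SMA vehicle (0.22) and higher again with ceftriaxone (0.23), and was the only one of the 32 pathway genes past the test in SMA ceftriaxone against wildtype (0.45, adjusted p = 0.00379), where 3.29% of all probe sets were higher. Both other kept Abca1 probe sets stood near 0 with ceftriaxone against vehicle (-0.013, adjusted p = 0.954, and an adjusted p of 0.999) and did not pass against wildtype (0.36 and 0.28, adjusted p = 0.165 and 0.291), so the Abca1 calls rest on its brightest probe set. A second Stard4 probe set also fell and did not pass with ceftriaxone (adjusted p = 0.0795). Vldlr, Lrp1, Osbp and Cyp46a1 passed none of the tests. Of 5 isoprenoid branch genes, Fntb and Fnta, the subunits of protein farnesyltransferase, fell by 1.42 and 0.57 and rose by 1.01 and 0.48, Trit1 was 0.43 higher in SMA vehicle cords, and Dhdds and Ggps1 did not pass.

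Cell markers moved in the same arrays. All 13 measured markers of mature oligodendrocytes and myelin fell in SMA vehicle cords (median -2.47) and rose with ceftriaxone (median 2.11), and 0 of 13 passed in SMA ceftriaxone against wildtype. The shares of all probe sets that did so were 22.3%, 18.3% and 4.21%. Their summed signal was 99541 to 161241 in wildtype, 28553 to 60320 in SMA vehicle and 115278 to 128273 in SMA ceftriaxone. Mog, a myelin surface protein, had a mean of 663.9 in SMA vehicle cords against 7221 in wildtype, and Klk6, an oligodendrocyte protease, 29.1 against 745.6. Within the SMA vehicle group, arrays 1 and 2 lay above arrays 3 and 4 in 13 of 13 myelin genes and in 7 of the 9 enzyme genes, all but Pmvk and Sqle, as in 22.4% of all probe sets.

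Other cell types moved less evenly. Of 12 astrocyte markers 6 fell and 3 rose in SMA vehicle cords, of 8 oligodendrocyte precursor markers 4 fell and 2 rose, of 10 endothelial and pericyte markers 6 fell, and of 10 microglial markers 7 fell. Of 15 neuronal markers 10 rose and 3 fell, and all 3 skeletal muscle markers that passed the filter rose. Among all probe sets 22.3% fell and 24.9% rose there. The summed signal of 8 muscle markers was 2437 to 5866 on SMA vehicle arrays, 717.8 to 1744 in wildtype and 312.4 to 840.3 with ceftriaxone. With ceftriaxone 8 of 12 astrocyte, 5 of 8 precursor, 6 of 10 endothelial and 6 of 10 microglial markers rose and none fell. Of the 15 neuronal markers 9 fell and 2 rose, and the 3 muscle markers fell. Among all probe sets 18.3% rose and 17.7% fell with ceftriaxone. Pmp22 and Egr2, markers of Schwann cells, summed to 6056 to 10601 in wildtype, 793.7 to 4619 in SMA vehicle and 3465 to 9169 in SMA ceftriaxone. What part any of these cell markers has in the enzyme values was not tested.

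**Figure D4:**
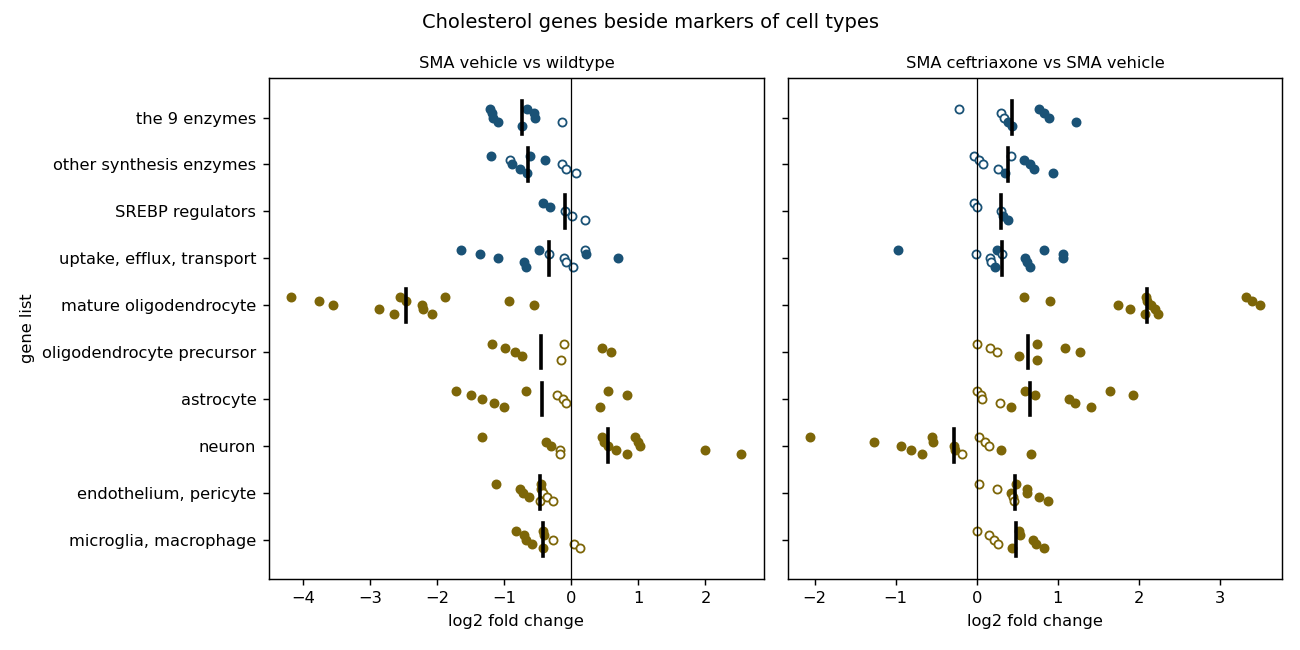
Log2 fold changes (x axis) of single genes by list (y axis) in SMA vehicle against wildtype (left) and SMA ceftriaxone against SMA vehicle (right). Blue marks cholesterol lists and brown cell markers, filled points have an adjusted p under 0.05, and black bars are medians. The medians of the myelin genes are -2.47 and 2.11, beside -0.74 and 0.43 for the 9 enzymes.

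The genes whose pattern over the 12 arrays was most like the mean of the 9 standardized enzyme profiles, among 8004 genes, were Elovl5 (Pearson r = 0.995), Slc35a2 (0.994), Slc35f6 (0.988), Cpd (0.988), Lcat (0.988) and Abca2 (0.986). Without wildtype array 2 these 6 had r of 0.986 to 0.995, but the 6 highest were then Dnajb2, Elovl5, Slc35a2, Anxa5, Gng11 and Slco3a1, so only Elovl5 and Slc35a2 were in both. These coefficients describe arrays that share 3 group means and 1 scaling, and carry no test. Among the enzymes themselves, Msmo1 (0.983), Idi1 (0.977) and Ebp (0.969) were closest to their common mean, and Pmvk (0.347) was farthest. Each enzyme is part of that mean, which raises its own r. Even so, Hmgcs1, Dhcr7 and Lss ranked only 291, 458 and 644 among the 8004 genes. Elovl5, a fatty acid elongase, had signals of 6497, 4699, 7008 and 7135 in wildtype, 3598, 3259, 2963 and 3033 in SMA vehicle and 4983, 5207, 4782 and 4951 in SMA ceftriaxone, the same order as Msmo1 with no overlap between SMA vehicle and the others.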

How the data were processed

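RNA of 12 spinal cords, 1 mouse per array and 4 mice per group, was amplified and hybridised as labelled cRNA, per the labels. The values deposited by the authors are linear intensity, 1 signal for each probe set, made with MAS5 per the submitters' processing notes. The authors had scaled them so that the mean without the highest and lowest 2% of probe sets was 699.9 on every array. Detection calls were not used here. Gene symbols came from the platform annotation and were updated through RefSeq gene identifiers.

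After 64 control probe sets were removed, log2(signal + 16) was taken, so fold changes understate those of dim genes. The 13575 of 22626 probe sets with a mean above the 40th percentile were tested with limma 3.58.1 in R 4.3.3 (lmFit and eBayes with an intensity trend, all 12 arrays, 9 residual degrees of freedom). Tests are two-sided with Benjamini-Hochberg adjustment over these probe sets and a threshold of 0.05. Models were tested on simulated data. Precision is limited by 4 arrays a group. No array duplicated another.

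The 9 genes and all lists were chosen with earlier results of these data known. The text names the 9 genes, in each other pathway list up to 6 genes of smallest p among those called and up to 4 not called, and the 6 genes most alike in pattern. Mog, Klk6, Rag1, Cd3d, Pmp22, Egr2, Xist, Eif2s3y, Gapdh, Actb and Smn1 are named beside them as markers or checks. Some listed pathway genes are not reported here. Alternatives comprised other offsets (1 and 64), quantile normalization or median centring, a filter at the 60th percentile or none, a variance without intensity trend, array quality weights, separate fits per comparison, a block for the replicate number, covariates for Xist and for Gapdh integrity, averaged probe sets per gene, and 1 array left out at a time. Splits by Xist signal were added after the data were seen.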

Additional observations from a re-analysis of the deposited data

Results flagged for a closer look

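Of 42 groups of 4 arrays examined over the probe sets of the 9 enzyme genes, 4 held an array set apart from the other 3, where chance gives about 1 in 20 groups. For Hmgcs1, the dimmest of its probe sets had SMA vehicle array 1 at 5900 and the others at 4821 to 4884, a gap of 0.936 of the range. For Sqle, wildtype array 2 stood at 3447 and the others at 4880 to 5073, a gap of 0.899 of the range. For Lss, ceftriaxone array 2 stood at 2023 and the others at 1781 to 1790, a gap of 0.964. For Msmo1, the same ceftriaxone array stood at 4472 and the others at 3973 to 4037, a gap of 0.865.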

How the results depend on the processing

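In SMA vehicle against wildtype the 8 falls kept their direction under every alternative run and lost their call only where named here: with only arrays of low Xist signal 4 of the 9 genes, 10 other pathway genes, 3 other synthesis enzymes and 2253 probe sets passed. With probe sets averaged per gene, so that genes are counted, 3694 passed there and 2870 in ceftriaxone against vehicle. In SMA ceftriaxone against wildtype, array quality weights gave 8 of the 9 genes, 9 other pathway genes, 4 other synthesis enzymes and 1826 probe sets, and quantile normalization gave 2 other pathway genes. Probe sets passing in that comparison numbered 236 with median centring, 111 with only the groups compared, 80 with Xist signal and 213 with the Gapdh ratio as a covariate. Leaving out each array in turn gave 0 to 7 of the 9 genes, 1 to 8 other pathway genes, 0 to 4 other enzymes and 164 to 1434 probe sets there, the highest without wildtype array 2. Lss changed sign in that comparison, to -0.056 with array quality weights, -0.13 with Xist signal as a covariate, -0.18 with the mean of its probe sets and -0.043 without wildtype array 2, within -0.043 to 0.148 over the arrays left out in turn. In ceftriaxone against vehicle, Hmgcs1 (adjusted p = 0.0511) and Fdps (0.0776) lost their call with median centring, and Fdps also with Xist signal as a covariate (0.0876) and with averaged probe sets (0.0612). Pmvk passed as lower there with array quality weights (0.0239) and with only the groups compared (0.0409). Under these settings Sqle (0.000994 and 0.00255) and Dhcr7 (0.0193 and 0.0211) passed as higher. Sqle also passed with quantile normalization (0.0299), the 60th percentile filter (0.0475) and averaged probe sets (0.0467), and Dhcr7 without wildtype array 1 (0.0383). With Xist signal as a covariate neither passed (Sqle 0.149, Dhcr7 0.228). The cause was not tested. Same-numbered arrays of different groups did not deviate together (correlations -0.143 to 0.133). With the replicate number as a block, 8, 6 and 0 of the 9 genes passed in the 3 comparisons, as without it, and 344 probe sets in SMA ceftriaxone against wildtype. With 4 arrays a group, changes as small as that of Sqle with ceftriaxone fell on either side of the threshold.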
